A study of Homo sapiens with 6 samples.

Results

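The zinc-dependent histone deacetylases are the enzymes that remove acetyl groups from lysines of histones and of other proteins, with a zinc ion in the active site. The genes were taken by their symbols, not by a threshold on their values, as HDAC1, HDAC2, HDAC3 and HDAC8 (class I), HDAC4, HDAC5, HDAC7 and HDAC9 (class IIa), HDAC6 (class IIb) and HDAC11 (class IV). These 10 genes were found among the 58735 gene rows, and all 10 passed the filter on low counts that left 15935 genes for testing. They were measured in RD cells, an established line of embryonal rhabdomyosarcoma (ERMS), a soft tissue tumor of children with features of skeletal muscle. Control cells were transduced with lentivirus carrying scrambled shRNA (n = 3), and TAK1 knockdown cells with lentivirus carrying a shRNA against TAK1, the kinase encoded by MAP3K7 (n = 3). Both groups therefore carried the same lentiviral backbone, which also encodes mCherry and puromycin resistance. The comparison asks how the mRNA levels of these deacetylases differ once the TAK1 transcript is reduced. It rests on 1 cell line and 1 sequence against TAK1, so an effect of losing TAK1 and an effect particular to that shRNA cannot be told apart.

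Class I enzymes are mostly nuclear and broadly expressed, and HDAC1, HDAC2 and HDAC3 work as the catalytic subunits of corepressor complexes. Class IIa enzymes have little deacetylase activity of their own, bind MEF2 transcription factors and hold muscle genes silent, and leave the nucleus when kinases phosphorylate them and 14-3-3 proteins bind. In the muscle lineage this export frees MEF2 during differentiation, and deacetylase inhibitors are known to push rhabdomyosarcoma cells toward differentiation.

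Total counts ran from 28839898 to 34469323 per sample, and levels are given as CPM, the counts scaled to a common library size by the trimmed mean of M-values (TMM). MAP3K7 fell from 77.3 ± 0.743 CPM in control cultures to 31.3 ± 2.00 CPM in TAK1 knockdown cultures (mean ± SD, n = 3 each), for a log2 fold change of -1.30 (standard error (SE) 0.06, adjusted p = 4.45e-14). A gene was called up or down where edgeR's quasi-likelihood test gave a Benjamini-Hochberg adjusted p under 0.05 over the 15935 genes and the absolute log2 fold change was at least 0.25. By that rule 1879 genes (11.8%) were called up and 1805 (11.3%) were called down, so that 51.0% of calls were up. With library size alone as the scaling, 62.9% of calls were up and the median log2 fold change of all genes was 0.066 in place of 0.018. The muscle lineage was visible in both groups, with DES at 340 ± 5.05 and 362 ± 10.2 CPM and MYOD1 at 263 ± 8.03 and 339 ± 16.7 CPM, while MYF5 was at 0 in all 6 samples. Of the 7 muscle markers tested, MYOD1 and MYOG were called up and CHRNA1 down, and their part in the differences between deacetylases was not tested. Of 12 markers of blood, epithelial and endothelial cells, 0 were tested, as each lay at or below 0.425 CPM in every sample. The labels number the samples within each group without saying how the cultures were separated, so the p-values measure the spread between these samples.

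Of the 10 deacetylases, 2 were called up, HDAC9 and HDAC11, and 0 were called down. Against the 11.8% of all tested genes that were called up, a count of 2 among 10 is not read as a property of the family. Without the fold threshold, 4 of the 10 were higher in TAK1 knockdown cultures (HDAC4, HDAC6, HDAC9 and HDAC11), where 16.1% of all tested genes were, and 2 were lower (HDAC1 and HDAC2), where 17.2% were. The lower HDAC1 and HDAC2 are also the 2 members with a negative difference and an unadjusted p under 0.05. The remaining 4 members (HDAC3, HDAC5, HDAC7 and HDAC8) did not pass the adjusted p. The same 6 genes had control and knockdown samples that did not overlap, 4 higher and 2 lower, beside 21.6% and 22.2% of all tested genes (43.9% in either direction).

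Promoter sequence is shown for the class I and class IIa genes that passed the adjusted p and for HDAC11, whose adjusted p was the lowest of the 10. Each stretch runs from 190 bases before a RefSeq transcription start to the 10th base of the transcript, read 5′ to 3′ on the gene's own strand from GRCh38.p14. The stretches are chr7:18086635-18086834 (plus strand) for the most upstream HDAC9 start, chr2:239401640-239401839 (minus strand) for the most upstream HDAC4 start, chr3:13480116-13480315 (plus strand) for HDAC11, chr1:32291893-32292092 (plus strand) for HDAC1 and chr6:113971139-113971338 (minus strand) for HDAC2. These RefSeq starts need not be the upstream ends of the GENCODE genes given below, and the HDAC2 and HDAC11 stretches lie inside those genes. Capitals mark matches on either strand to 6 motifs. The first is the GC box, spelled GGGCGG. The others are CCAAT, which NF-Y binds, the E-box CAGCTG that myogenic factors bind, the motif TGANTCA of AP-1, the motif GGAATG of TEAD factors and the MEF2 consensus.
HDAC9: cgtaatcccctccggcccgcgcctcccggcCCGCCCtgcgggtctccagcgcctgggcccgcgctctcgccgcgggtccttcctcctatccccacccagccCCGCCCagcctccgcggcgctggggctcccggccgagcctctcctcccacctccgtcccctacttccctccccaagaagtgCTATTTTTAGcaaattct
HDAC4: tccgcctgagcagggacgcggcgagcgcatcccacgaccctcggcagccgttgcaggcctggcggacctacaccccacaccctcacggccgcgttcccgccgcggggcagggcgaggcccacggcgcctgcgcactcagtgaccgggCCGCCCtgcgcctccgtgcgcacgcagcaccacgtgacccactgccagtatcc
HDAC11: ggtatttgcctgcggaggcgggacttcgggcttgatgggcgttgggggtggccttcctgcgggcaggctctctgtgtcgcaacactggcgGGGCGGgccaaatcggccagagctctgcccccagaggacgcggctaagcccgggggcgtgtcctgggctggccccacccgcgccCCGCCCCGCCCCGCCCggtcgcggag
HDAC1: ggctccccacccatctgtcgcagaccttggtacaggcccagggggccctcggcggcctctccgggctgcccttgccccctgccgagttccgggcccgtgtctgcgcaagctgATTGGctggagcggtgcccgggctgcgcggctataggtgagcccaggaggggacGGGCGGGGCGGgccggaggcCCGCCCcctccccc
HDAC2: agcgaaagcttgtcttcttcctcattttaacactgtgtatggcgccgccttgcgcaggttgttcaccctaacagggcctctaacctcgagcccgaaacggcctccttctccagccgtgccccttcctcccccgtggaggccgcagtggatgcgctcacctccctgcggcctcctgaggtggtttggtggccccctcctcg
The HDAC9 stretch holds a match to the MEF2 consensus, CTATTTTTAG, on chromosome 7 at 18086817 to 18086826, with its first base 8 bases before the start. That consensus was found in 1 of 19 promoter windows of the members and in 2.99% of the 35116 windows of all genes. The windows, from 250 bases before to 50 bases after each start, covered 9 of the 10 members, and HDAC4 and HDAC9 had 5 starts each. GC boxes were found in 8 of the 19 windows, from 6 members, and in 45.0% of all windows. The HDAC2 stretch has no capitals, which says only that these letters are not in it. TGANTCA lay in 2 windows, both at internal starts of HDAC9, against 7.71% of all windows. Those 2 windows overlap and hold the same match, at 18495682 to 18495688. CAGCTG lay in 5 windows from 3 members, against 17.9%. Overlapping windows of HDAC9 and of HDAC6 also share matches to other motifs, so window counts hold some sites more than once. GGAATG lay in 4 windows of 4 members, against 14% of all windows, and CCAAT in 6 windows of 3 members, against 34.6%. The counts are per gene and do not tell one start from another.

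Within class I, HDAC1 and HDAC2 were slightly lower after TAK1 knockdown and HDAC3 and HDAC8 did not pass the test. HDAC1 (ENSG00000116478.12, chromosome 1, 32292083 to 32333635) encodes a catalytic subunit of the SIN3, NuRD and CoREST complexes. Its level was 303, 313 and 304 CPM in control replicates 1, 2 and 3 and 279, 287 and 268 CPM in knockdown replicates 1, 2 and 3. Every knockdown sample lay below every control sample. Its pseudogene copies HDAC1P1 and HDAC1P2 had at most 2 counts in any sample. The log2 fold change was -0.14 (SE 0.04, 95% confidence interval (CI) -0.23 to -0.05, adjusted p = 0.0152), which is within the fold threshold. It missed the adjusted p with library size alone as the scaling (-0.09, adjusted p = 0.106) and without control replicate 2 (-0.13, adjusted p = 0.103).

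HDAC2 (ENSG00000196591.12, chromosome 6, 113933028 to 114011308) encodes the close paralog of HDAC1 in the same complexes. Control replicates measured 271, 263 and 268 CPM, and knockdown replicates 231, 240 and 243 CPM. The groups did not overlap, and the log2 fold change of -0.17 (SE 0.04, 95% CI -0.26 to -0.08, adjusted p = 0.00439) was also within the fold threshold. HDAC2 passed the adjusted p under all 14 alternative settings, with log2 fold changes from -0.19 to -0.12. Its exons overlap HDAC2-AS2 on the other strand, a gene of 0.697 and 0.918 CPM in control and knockdown cultures.

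HDAC3 (chromosome 5, 141620876 to 141636849) encodes the catalytic subunit of the NCoR/SMRT complexes. It was at 71.1, 67.7 and 70.4 CPM in control replicates and at 67.5, 66.8 and 69.4 CPM in knockdown replicates, and the groups overlapped. Its log2 fold change was -0.04 (95% CI -0.15 to 0.07, adjusted p = 0.631), an interval that keeps a difference of either sign within 0.15. HDAC8 (chromosome X, 72329516 to 72573101) encodes the deacetylase of the cohesin subunit SMC3. It was at 6.54, 8.73 and 7.43 CPM in control replicates and at 7.08, 7.96 and 8.33 CPM in knockdown replicates, on 186 to 281 counts per sample. Its control replicates spanned the knockdown range, and the interval of its log2 fold change (0.04, 95% CI -0.22 to 0.30, adjusted p = 0.841) was the widest of the class. The sign of HDAC3 turned with library size alone (0.01), and that of HDAC8 when single samples were left out (lowest value -0.05).

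In class IIa, all 4 point estimates lay above 0. HDAC9 (ENSG00000048052.25, chromosome 7, 18086949 to 19002416) encodes the class IIa member that also exists as MITR, a form without the catalytic domain that binds MEF2, and it rose after TAK1 knockdown. It was at 4.78, 5.40 and 7.33 CPM in control replicates and at 7.97, 8.92 and 8.12 CPM in knockdown replicates, on 136 to 315 counts per sample. Control replicate 3 was the highest control and lay just under the lowest knockdown sample, so the groups did not overlap. The log2 fold change was 0.51 (SE 0.14, 95% CI 0.22 to 0.80, adjusted p = 0.00599). Without control replicate 3 it was 0.71, and without control replicate 1 it was 0.39 with an adjusted p of 0.0481. HDAC9 passed both thresholds under all 14 alternatives.

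HDAC4 (ENSG00000068024.18, chromosome 2, 239048168 to 239401654) encodes the class IIa member whose loss is known to blunt the response of muscle to denervation. It was at 80.3, 74.8 and 74.4 CPM in control replicates and at 94.9, 86.2 and 85.8 CPM in knockdown replicates. All 3 knockdown samples lay above all 3 controls, and replicate 1 was the highest of its group in both. The log2 fold change was 0.22 (SE 0.06, 95% CI 0.10 to 0.33, adjusted p = 0.00362), short of the fold threshold. It reached that threshold with library size alone (0.27) and without control replicate 1 (0.25), and it passed the adjusted p in all 14 alternatives. The paper lists HDAC4 and HDAC9 among differentiation markers whose mRNA was raised in TAK1 knockdown RD cells. In the main fit used here HDAC9 passed the fold threshold and HDAC4 did not.

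HDAC5 (chromosome 17, 44076746 to 44123702) and HDAC7 (chromosome 12, 47782722 to 47833132) encode the other two class IIa enzymes, which share the MEF2 binding and 14-3-3 sites of HDAC4. HDAC5 was at 85.1, 83.5 and 83.9 CPM in control replicates and at 93.3, 79.3 and 85.5 CPM in knockdown replicates, which lay on both sides of the controls. Its log2 fold change was 0.03 (95% CI -0.09 to 0.15, adjusted p = 0.730). HDAC7 was at 129, 128 and 132 CPM in control replicates and at 149, 137 and 131 CPM in knockdown replicates, with knockdown replicate 3 among the controls. Its log2 fold change of 0.10 (95% CI -0.01 to 0.20, adjusted p = 0.150) passed the adjusted p with library size alone as the scaling (0.15, adjusted p = 0.0282). The spread between knockdown samples was larger than that between controls for both genes, at an SD of 7.01 against 0.821 CPM for HDAC5 and 9.16 against 1.77 CPM for HDAC7. Knockdown replicate 1 was the highest knockdown sample for HDAC4, HDAC5 and HDAC7, and without it the median log2 fold change of class IIa was 0.11 in place of 0.16.

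**Figure D1:**
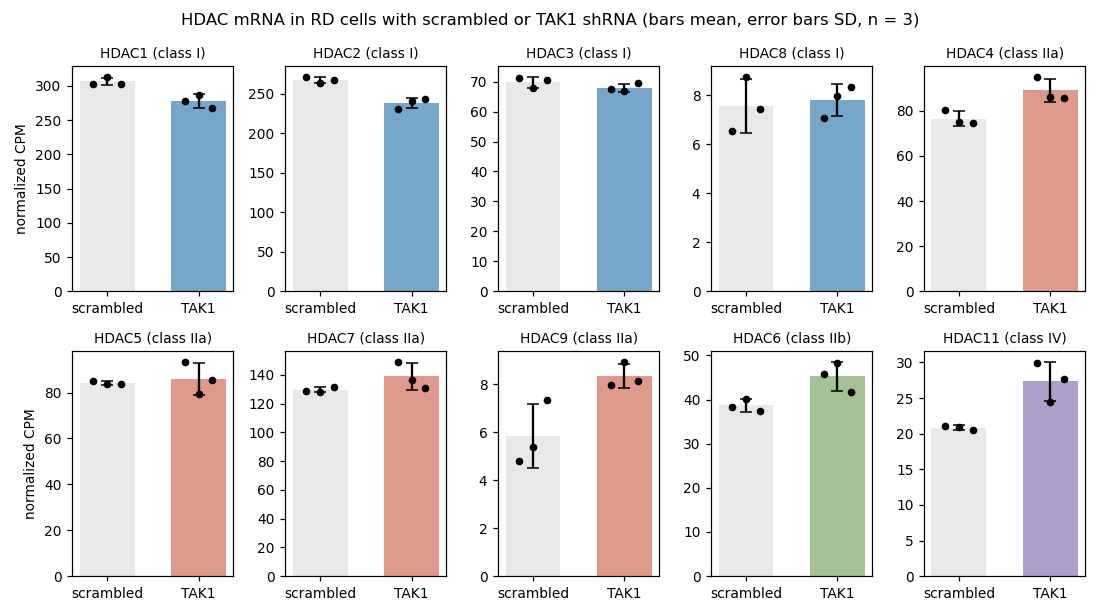
Normalized CPM of each of the 10 deacetylases, 1 panel per gene on its own linear axis from 0, with bars for the mean, error bars for the SD and a point for each of the 3 control (scrambled) and 3 TAK1 knockdown samples. HDAC4, HDAC6, HDAC9 and HDAC11 separate upward, with means of HDAC9 from 5.84 to 8.33 and of HDAC11 from 20.9 to 27.3 CPM. HDAC1 and HDAC2 separate downward, and the points of HDAC3, HDAC5, HDAC7 and HDAC8 overlap.

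The other two classes had 1 member each, and both were higher after knockdown. HDAC11 (ENSG00000163517.15, chromosome 3, 13479724 to 13506424) encodes the sole class IV enzyme, which also removes longer fatty acyl groups from lysines. It was at 21.1, 21.0 and 20.5 CPM in control replicates and at 29.9, 24.5 and 27.6 CPM in knockdown replicates. The controls lay within 1 CPM of each other and below every knockdown sample. HDAC11 rose by a log2 fold change of 0.39 (SE 0.08, 95% CI 0.22 to 0.56, adjusted p = 0.000484), and it passed both thresholds under all 14 alternatives (0.32 to 0.46). HDAC11-AS1, which overlaps its exons on the other strand, had at most 2 counts in any sample.

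HDAC6 (chromosome X, 48801377 to 48824982) encodes the cytoplasmic deacetylase of α-tubulin and carries a ubiquitin-binding zinc finger. It was at 38.4, 40.2 and 37.4 CPM in control replicates and at 45.8, 48.2 and 41.8 CPM in knockdown replicates, without overlap. The log2 fold change was 0.23 (SE 0.07, 95% CI 0.09 to 0.37, adjusted p = 0.00987), within the fold threshold. The adjusted p was missed without control replicate 3 (0.20, adjusted p = 0.0597) and without knockdown replicate 2 (0.18, adjusted p = 0.0628). HDAC10, the other class IIb gene and not among the 10, was at 1.20, 2.13 and 1.01 CPM in control and 2.46, 1.47 and 1.48 CPM in knockdown replicates, with overlapping groups (log2 fold change 0.31, SE 0.30, adjusted p = 0.469).

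**Figure D2:**
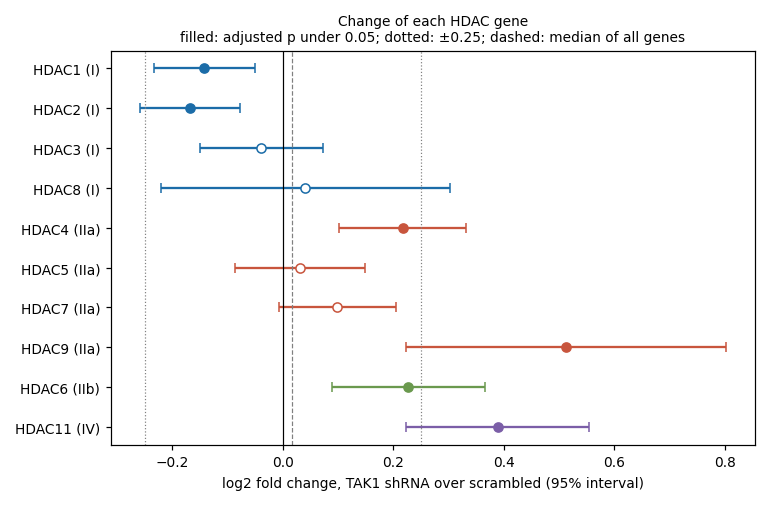
Log2 fold change (TAK1 knockdown over control, edgeR) of each deacetylase, grouped by class, with the 95% confidence interval as a bar, filled points for an adjusted p under 0.05, dotted lines at ±0.25 and a dashed line at the median of all genes. Intervals of HDAC1 and HDAC2 lie below 0, those of HDAC4, HDAC6, HDAC9 and HDAC11 lie above 0, and the point estimates run from -0.17 to 0.51.

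Set side by side, 3 of 4 class I genes had a negative log2 fold change and 4 of 4 class IIa genes a positive one. Of all 15935 genes tested, 8370 were higher and 7565 lower in point estimate. The signs of HDAC3, HDAC5 and HDAC8 turned in some of the alternative settings. The median was -0.09 in class I (range -0.17 to 0.04) and 0.16 in class IIa (range 0.03 to 0.51), beside 0.07 over the 10 genes and 0.02 over all genes tested. The classes hold 4 genes each, so these medians are a description and were not tested. In class IIa, HDAC4 and HDAC9 passed the adjusted p and HDAC5 and HDAC7 did not. HDAC1, HDAC6 and HDAC9 overlap no exon of another annotated gene, whereas HDAC5 overlaps G6PC3 and HDAC7 overlaps SLC48A1 on the other strand, HDAC3 and HDAC4 likewise overlap genes on the other strand, and HDAC8 overlaps a gene on its own strand.

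Levels of different genes were compared as CPM per kilobase of the canonical GENCODE transcript. In control cultures HDAC1 led at 145 CPM per kb, followed by HDAC3 at 36.1, HDAC7 at 30.8, HDAC2 at 27.4 and HDAC5 at 15.8 CPM per kb. HDAC6 at 9.39 and HDAC4 at 9.04 CPM per kb overlapped in their control samples, and below them came HDAC11 at 7.40, HDAC8 at 4.31 and HDAC9 at 0.591 CPM per kb. In knockdown cultures the ranges of HDAC3 (35.1 CPM per kb) and HDAC7 (33.0) overlapped, as did those of HDAC6 (11.0), HDAC4 (10.5) and HDAC11 (9.70). The order depends on the length used for several genes, HDAC2 among them. Its canonical transcript is annotated with 9737 bases, and with the median annotated length of 570 bases it stood at 469 CPM per kb, above HDAC1 at 408. On that length HDAC7 (205 CPM per kb) also stood above HDAC3 (96.5), and on the longest annotated length HDAC7 (20.2) lay below HDAC2 (27.4) and HDAC6 (6.66) below HDAC11 (7.25). HDAC9 was the lowest on all 3 lengths.

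On the canonical scale, class I held 74.2, 74.7 and 74.4% of the summed level of the 10 genes in control replicates and 69.1, 71.7 and 71.1% in knockdown replicates. Class IIa held 19.9, 19.3 and 19.9% in control replicates and 23.1, 21.0 and 21.5% in knockdown replicates. The 2 groups did not overlap in either share. The shares of a sample add up to a whole, so they are not separate results, and genes of high level weigh most. In class I, mean CPM per kb went from 145 to 131 for HDAC1, 27.4 to 24.4 for HDAC2, 36.1 to 35.1 for HDAC3 and 4.31 to 4.44 for HDAC8. In class IIa it went from 30.8 to 33.0 for HDAC7, which did not pass the adjusted p. It went from 9.04 to 10.5 for HDAC4, 15.8 to 16.2 for HDAC5 and 0.591 to 0.844 for HDAC9. The ratio of class IIa to class I was 0.265 ± 0.00514 in control and 0.310 ± 0.0216 in knockdown cultures (SD, n = 3 each). HDAC11 alone made up 2.59% of the summed level in control and 3.51% in knockdown cultures. The shares are of mRNA, and in bulk RNA fewer cells with a transcript and less of it per cell cannot be told apart.

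**Figure D3:**
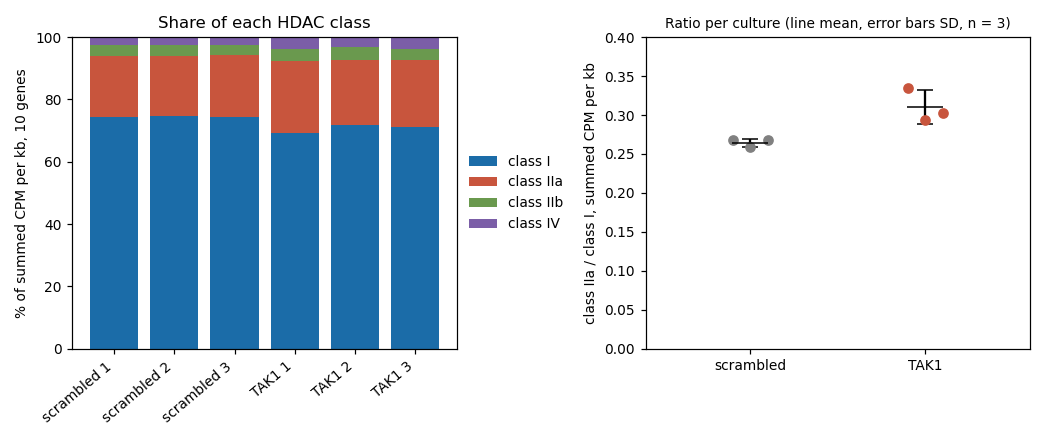
Left, share of each class (percent) in the summed CPM per kilobase of the 10 deacetylases in each sample as stacked bars; right, ratio of class IIa to class I with points for samples, lines for means and error bars for SDs. Class I lies at 74.2 to 74.7% in the 3 controls and 69.1 to 71.7% in the 3 knockdown samples, and class IIa at 19.3 to 19.9% and 21.0 to 23.1%.

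The subunits with which HDAC1, HDAC2 and HDAC3 work were followed through lists of their complexes. Of 46 tested subunits, 2 were called up and 7 were called down, beside 11.8% and 11.3% of all tested genes, with a median log2 fold change of -0.04. Of the 7 downward calls 5 were among the 15 SIN3 subunits tested, a count that was not tested against the 11.3% over all genes. SAP18 fell from 55.7 ± 3.95 to 36.7 ± 0.356 CPM (log2 fold change -0.60, adjusted p = 6.03e-08), and SUDS3, a subunit needed for the deacetylase activity of SIN3, fell from 52.1 ± 0.805 to 36.2 ± 1.80 CPM (-0.52, adjusted p = 3.45e-07). ING1 (-0.34, adjusted p = 0.0037) and ING2 (-0.36, adjusted p = 0.0208), which read methylated histone H3, fell as well. The scaffolds SIN3A and SIN3B were at 0.02 and 0.06 and did not pass the test. The exons of ING1 overlap CARS2 on the other strand.

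NuRD and CoREST, which combine deacetylation with nucleosome remodelling and histone demethylation, had 1 call in each direction apiece. Of all tested genes 11.8% were called up and 11.3% down. In NuRD, with 12 of 13 subunits tested, CDK2AP1 fell from 63.3 ± 5.94 to 43.3 ± 2.30 CPM (-0.55, adjusted p = 7.04e-07), and the methyl-CpG-binding family member MBD3 rose from 137 ± 6.97 to 165 ± 12.6 CPM (0.27, adjusted p = 0.000445). Without the fold threshold 3 NuRD subunits were higher and 6 lower, under a rule that 16.1% and 17.2% of all tested genes met. The higher ones were MBD3, MTA1 (0.22) and GATAD2A (0.17). Among the lower ones were the histone-binding proteins RBBP4 (-0.18) and RBBP7 (-0.21). In CoREST, with 8 tested, RCOR1 fell from 105 ± 3.15 to 86.9 ± 2.09 CPM (-0.27, adjusted p = 0.000172) while its paralog RCOR2 rose from 52.1 ± 1.56 to 66.3 ± 6.25 CPM (0.35, adjusted p = 0.000147). Neither the 5 NCoR/SMRT subunits, partners of HDAC3, nor the 6 MiDAC and MIER subunits had a member past the fold threshold. By adjusted p alone, 1 NCoR/SMRT subunit was higher, TBL1X (0.19), and 2 were lower, NCOR1 (-0.14) and TBL1XR1 (-0.20). Of the MiDAC and MIER subunits 2 were higher and 1 lower. CDK2AP1, MBD3, MTA1, RBBP4, RBBP7, NCOR1 and TBL1XR1 share exon sequence with other annotated genes.

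The cohesin list, which follows the known substrate of HDAC8, had 8 of 13 genes lower by adjusted p and a median of -0.17. Of all tested genes 17.2% met that rule, a share not matched for expression level, and the count was not tested against it. Only WAPL, which releases cohesin from chromatin, passed the fold threshold of the 13, falling from 157 ± 5.40 to 128 ± 5.37 CPM (-0.29, adjusted p = 5.84e-05). With that threshold 11.3% of all tested genes were called down. SMC3 itself was at 238 and 209 CPM (-0.19, adjusted p = 0.0039).

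Genes around class IIa enzymes were taken by role, beginning with their partners. MEF2A was at 54.1 ± 3.69 and 51.1 ± 2.27 CPM in control and knockdown cultures (-0.08, adjusted p = 0.364), MEF2C at 6.07 ± 0.485 and 5.55 ± 0.457 CPM (-0.13, adjusted p = 0.505) and MEF2D at 157 ± 2.36 and 157 ± 12.2 CPM (-0.01, adjusted p = 0.951). The groups of each factor overlapped, and none of the 3 passed the test. MEF2B stayed at or below 0.281 CPM and was not tested. Of 17 tested kinases that phosphorylate class IIa enzymes, 1 was called up and 4 were called down, beside 11.8% and 11.3% of all tested genes. CAMK2B, an isoform of CaMKII, a kinase known to signal through HDAC4, rose from 22.6 ± 0.648 to 35.8 ± 2.93 CPM (0.67, adjusted p = 1.37e-07), though its exons overlap YKT6 on the other strand. CAMK2D fell from 85.4 ± 1.88 to 66.8 ± 1.37 CPM (-0.36, adjusted p = 7.64e-06), PRKD3 fell from 190 ± 3.10 to 151 ± 5.90 CPM (-0.33, adjusted p = 4.76e-06) and CAMK1D fell from 10.2 ± 1.57 to 8.04 ± 0.218 CPM (-0.34, adjusted p = 0.0281). Exons of CAMK2D and PRKD3 likewise overlap genes on the other strand.

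The 14-3-3 genes, whose proteins retain phosphorylated class IIa enzymes in the cytoplasm, were all lower in point estimate. Their log2 fold changes ran from -0.52 to -0.05 over 6 tested genes, where 7565 of all 15935 tested genes were lower. Of the 6, 2 were called down, beside 11.3% of all tested genes, and these counts were not tested. YWHAH fell from 111 ± 2.52 to 77.6 ± 2.49 CPM (-0.52, adjusted p = 1.47e-08) and YWHAZ from 696 ± 13.5 to 567 ± 20.3 CPM (-0.29, adjusted p = 5.02e-06). YWHAB (-0.18, adjusted p = 0.0019) was lower within the fold threshold, and YWHAE, YWHAG and YWHAQ did not pass. YWHAH shares exon sequence with an antisense gene and with a second gene on its own strand.

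Muscle genes that class IIa enzymes repress or MEF2 factors drive gave 2 calls up and 1 down among 14 tested, with a median of 0.16. These counts are close to the 11.8% and 11.3% of all tested genes called in each direction and are not read as a property of the list. MYOG, the myogenic factor of differentiation, rose from 141 ± 6.07 to 170 ± 7.85 CPM (0.27, adjusted p = 0.000153), and the thin-filament gene LMOD3 rose from 11.6 ± 0.722 to 14.3 ± 1.17 CPM (0.31, adjusted p = 0.0167). CHRNA1, the acetylcholine receptor subunit that HDAC4 is known to control in denervated muscle through MYOG, fell from 921 ± 11.5 to 700 ± 2.33 CPM (-0.40, adjusted p = 1.91e-08). CHRNA1 and LMOD3 overlap exons of genes on the other strand. MYOG and CHRNA1 are also muscle lineage markers.

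The list of HDAC6 substrates and partners had a median of -0.17, with 6 of its 8 genes below 0 in point estimate. By adjusted p those 6 were lower, among them CTTN (-0.23), HSP90AA1 (-0.22), HSP90AB1 (-0.11) and VCP (-0.24). Of all tested genes 17.2% were lower by that rule, a share not matched for expression level, and the count was not tested against it. ATAT1, the α-tubulin acetyltransferase, was higher (0.22, adjusted p = 0.048). TPPP, a tubulin-binding protein, was at 1.70 ± 0.185 CPM in control and 2.49 ± 0.314 CPM in knockdown cultures, without overlap between groups, and did not pass the test (0.54, adjusted p = 0.0633). BAG3, a co-chaperone of aggresome traffic, was the 1 gene past the fold threshold and fell from 83.1 ± 2.59 to 53.2 ± 1.72 CPM (-0.65, adjusted p = 1.44e-09). With that threshold 11.3% of all tested genes were called down.

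**Figure D4:**
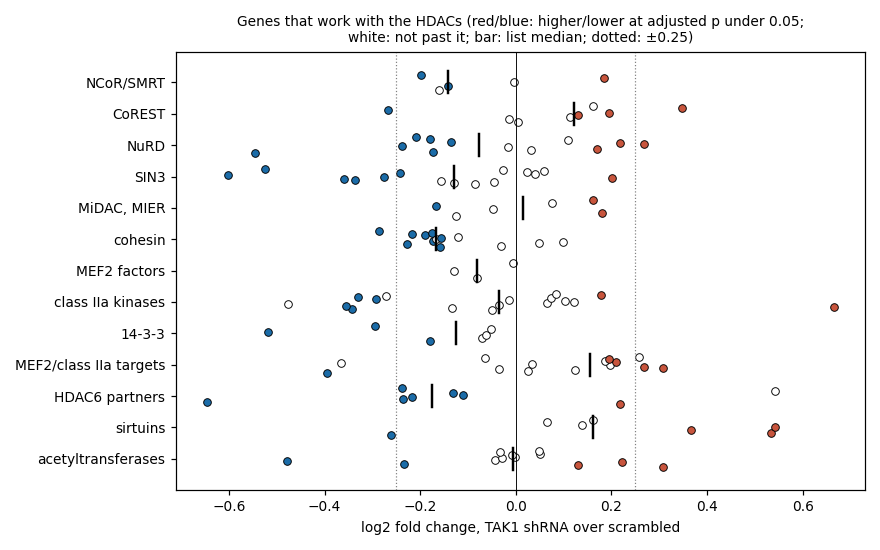
Log2 fold change (TAK1 knockdown over control) of each tested gene in the lists of complexes, kinases, partners, targets and other acetylation enzymes, with each list's median as a bar, red or blue points for genes higher or lower at an adjusted p under 0.05, and white points for the rest. The NCoR/SMRT, SIN3, 14-3-3, HDAC6 partner and cohesin lists have medians from -0.17 to -0.12, and the CoREST, muscle target and sirtuin lists from 0.12 to 0.16.

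Over the 14 alternatives that refit the test, the direction of HDAC1, HDAC2, HDAC4, HDAC6, HDAC7, HDAC9 and HDAC11 did not turn. HDAC3, HDAC5 and HDAC8, whose intervals include 0, took both signs.

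**Figure D5:**
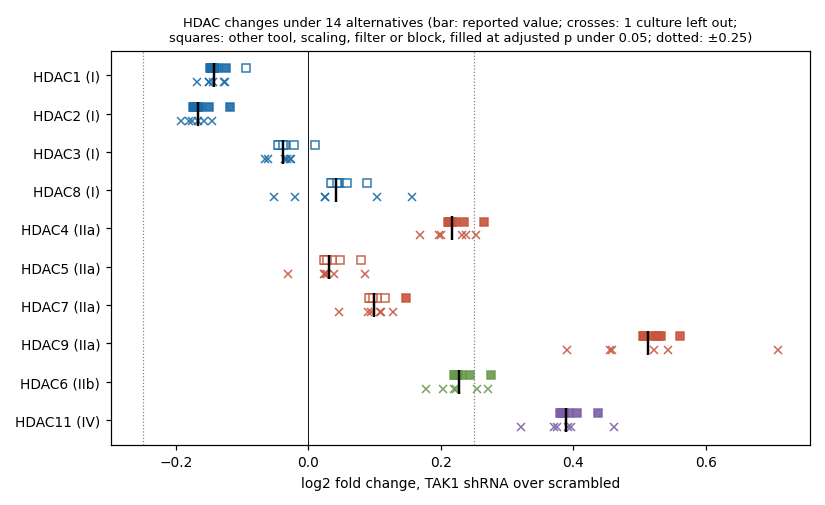
Log2 fold change of each deacetylase as reported (black bar), with 1 culture left out (crosses) and under another tool, scaling, filter or replicate block (squares, filled at an adjusted p under 0.05). HDAC9 spans 0.39 to 0.71 and HDAC11 0.32 to 0.46, while the points of HDAC3, HDAC5 and HDAC8 lie on both sides of 0.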

How the data were processed

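Poly(A)-enriched RNA from 3 control and 3 TAK1 knockdown RD cultures was sequenced as paired reads. Per the study's methods, the authors called bases with CASAVA, filtered out reads with adaptor sequence or poor quality, and used STAR to align what was left to GRCh38. The deposited values are raw counts of reads per gene, without normalization. The counting program, the annotation release and the use of strand are not given in the sources used here, so genes that share exons cannot be separated. Samples were grouped by their labels.

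Counts of 58735 rows were analysed with edgeR 4.0.16 in R 4.3.3 (default expression filter, TMM, the quasi-likelihood test and p-values adjusted over 15935 genes by Benjamini-Hochberg). The study's thresholds, adjusted p under 0.05 and log2 fold change of 0.25 or more in size, defined a call. The SE was obtained from the size of the log2 fold change and the root of its F statistic, by division. The common biological coefficient of variation was 5.67%, and HDAC8 and HDAC9, with the fewest counts, were the members for which counting error was largest beside it. CPM and fold changes are not corrected for length unless stated. Alternatives were DESeq2 1.42.0, limma 3.58.1 (voom), RLE, upper-quartile and library-size scaling, other filters and fold thresholds, the replicate number as a term, and each sample left out in turn. The fit was tested on simulated data. Gene coordinates, transcript lengths and exon overlaps are from GENCODE 44 (GRCh38), and promoter windows are from RefSeq (GRCh38.p14), where 9 of the 10 members matched.

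The members and gene lists were chosen with earlier results of these data known, and lists were described by counts and medians without a test. Named genes are all members, HDAC10, MAP3K7, the MEF2 factors, muscle markers and, in every other list, at most the 4 largest called changes in genes averaging 1 CPM or more whose groups did not overlap. Genes named within the fold threshold (MTA1, GATAD2A, RBBP4, RBBP7, TBL1X, NCOR1, TBL1XR1, SMC3, YWHAB, CTTN, HSP90AA1, HSP90AB1, VCP, ATAT1, EP300) and TPPP, SIN3A, SIN3B, YWHAE, YWHAG and YWHAQ were chosen after their values were seen.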

Additional observations from a re-analysis of the deposited data

How the results depend on the processing

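The 2 upward and 0 downward calls among the 10 deacetylases were also given by DESeq2, limma, RLE and upper-quartile scaling and both other filters. Library size alone as the scaling gave 4 upward calls, a fold threshold of 0.5 gave 1, and no fold threshold gave 4 upward and 2 downward, and leaving out 1 sample gave 2 to 3 upward and 0 downward. Over all genes a fold threshold of 0.5 left 735 upward and 680 downward calls, no fold threshold gave 2734 downward, and leaving out 1 sample gave 1582 to 1810 upward and 1675 to 1931 downward. The class I median was -0.042 with library size alone and -0.10 to -0.09 without single samples, and the class IIa median was 0.21 and 0.11 to 0.18, the lowest without TAK1 knockdown replicate 1. The class IIa share was 18% in control and 20.1% in knockdown cultures with the longest transcript, and 27.8% and 31.3% with the median length. The lengths change only the divisor of the same CPM, and why the other values moved was not tested.

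With the replicate number as a block, 2 members were called up and 0 down, and 1942 genes up and 1848 down. By adjusted p alone the block gave 2949 genes up and 3068 down, in place of 2569 and 2734. Same-numbered samples had correlations of 0.037, 0.036 and 0.017 between their deviations from the group means. Those of samples with different numbers ran from -0.052 to 0.019, and control replicate 3 correlated best with knockdown replicate 2 (0.019). The labels and the study's methods state no pairing, and the numbers were not taken to pair the samples. The counts of HDAC8 and HDAC9 limit their precision, and 1 shRNA in 1 line limits the comparison.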

Other observations

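The deacetylases outside the zinc-dependent family and the enzymes that add acetyl groups were described in the same fit. Sirtuins use NAD+ in place of zinc, and of the 7 tested 3 were called up and 1 down, beside 11.8% and 11.3% of all tested genes. SIRT2, a cytoplasmic α-tubulin deacetylase like HDAC6, was at 229, 234 and 231 CPM in control replicates and at 350, 336 and 318 CPM in TAK1 knockdown replicates, and it rose by a log2 fold change of 0.53 (SE 0.05, adjusted p = 1.40e-09). SIRT3, a mitochondrial deacetylase, rose from 17.1 ± 0.856 to 22.0 ± 1.02 CPM (0.37, adjusted p = 0.000947) and SIRT4 from 2.32 ± 0.245 to 3.38 ± 0.270 CPM (0.54, adjusted p = 0.0268). SIRT1, which acts on histones and p53, fell from 55.9 ± 2.35 to 46.7 ± 0.871 CPM (-0.26, adjusted p = 0.00123). SIRT2 and SIRT3 overlap exons of NFKBIB and RIC8A on the other strand, and SIRT4 likewise overlaps a gene there.

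Of 12 acetyltransferases tested, 1 was called up and 1 down, not above those shares, and their median log2 fold change was -0.0049. CREBBP, a coactivator of many transcription factors, rose from 163 ± 8.88 to 202 ± 11.3 CPM (0.31, adjusted p = 4.11e-05). KAT2B, a coactivator of MYOD1, fell from 4.02 ± 0.603 to 2.90 ± 0.444 CPM (-0.48, adjusted p = 0.0434). By adjusted p alone, 3 acetyltransferases were higher and 2 lower, where 16.1% and 17.2% of all tested genes were. EP300, the paralog of CREBBP, was among the higher ones at 158 and 173 CPM (0.13, adjusted p = 0.047), with overlapping groups.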
